A study of Mus musculus with 8 samples.

Results

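Expression of the markers by which adipose progenitors and dermal fibroblasts are told apart was examined in skin taken at full thickness from E17.5 mouse embryos. The 10 markers are Pdgfra, Pdgfrb, Dlk1, Ly6a, Cd34, Dpp4, Pi16, Cd24a, Gdf10 and Itga8, out of 19938 genes with a row of their own on the array. They were chosen by name, as genes known to mark these lineages, and 9 of the 10 had a row with exactly 1 gene symbol. No row of the platform annotation names Ly6a, the surface antigen Sca-1, so it was not analysed here. The study compared 4 RNAs from embryos labelled PpargΔ/Δ and null for PPARgamma, called Pparg null here, with 4 RNAs from embryos labelled wildtype for it, called control. All 8 came from a mixed C57BL6/SV129 background, and each RNA was hybridised to 1 single-colour Affymetrix whole-transcript array. The labels name no Cre driver, litter or sex and do not say which part of Pparg was deleted, and they describe no treatment other than tissue collection. Values are log2 signals, so a difference of 1 is a doubling, and p-values measure the spread between these 8 RNAs.

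White fat of the skin forms below the dermis from mesenchymal progenitors that also give rise to fibroblasts. In mouse dermis a common pool of Pdgfra-expressing fibroblasts separates into an upper, papillary lineage and a lower, reticular lineage, and the lower one gives rise to preadipocytes. PPARgamma, the product of Pparg, is the nuclear receptor that turns committed preadipocytes into adipocytes, and the markers described here are largely carried by cells that stand before that step. The question the comparison addresses is how these markers stand in skin labelled null for the receptor.

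Full-thickness skin holds epidermis, follicles, dermis, vessels, muscle and fat, and markers of these compartments were read on every array. The summed signal of 12 epidermal and follicle keratins and regulators, on the log2 scale, was 15.42 to 15.50 on the arrays labelled Pparg null and 15.41 to 15.54 on the control arrays. The summed signal of 17 fibroblast and matrix genes was 15.43 to 15.58 on the arrays labelled Pparg null and 15.52 to 15.60 on the control arrays. For 8 skeletal muscle genes it was 14.25 to 14.75 on the labelled-null arrays and 14.37 to 14.62 on the control arrays. For 10 leukocyte genes it was 12.96 to 13.10 on the labelled-null arrays and 13.11 to 13.24 on the control arrays, without overlap. Of 9 tested leukocyte genes none passed the test used below, with a lowest limma adjusted p of 0.643. Among them 5 lay below control and 4 above, with a median difference of -0.02. The largest difference was that of Mcpt4, at -0.50, and its part in the sum was not tested. The Pparg row lay no lower in the labelled-null group than in the other, at 9.12 ± 0.10 against 8.94 ± 0.13 in control skin (log2 signal, SD, n = 4 each). This row may read a part of the gene that was not deleted, which the labels do not settle, so each direction below is given for the arrays labelled Pparg null. Along the first principal component of autosomal genes the labelled-null array 4 scored -21.7 and control array 1 scored -8.62, against -3.12 to 9.02 for the other 6 arrays.

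None of the 9 measured markers rose or fell past the threshold, set at 0.05 for the limma p adjusted over the 15174 genes tested. Their log2 differences, Pparg null minus control, ran from -0.21 (Gdf10) to 0.12 (Itga8), and the adjusted p was 0.9995 for each. Over all tested genes 18 passed, or 0.119%, with 0.112% lower and 0.00659% higher, so 0 of 9 is near that background. Under an unadjusted limma p of 0.05 lay 2 of the 9, Gdf10 and Itga8, where 3.61% of all genes did. Values of the 2 groups overlapped for every one of the 9, and 2.45% of all genes had groups that did not overlap. Between the groups 7 of the 9 differed by at most 0.1 on the log2 scale, as did 82.9% of all genes. The median difference of the 9 was 0.04, beside -0.00058 over all tested genes, and 7 of 9 lay above control, beside 49.7% of all genes. In bulk skin, fewer cells of a type and less RNA per cell cannot be told apart.

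All 9 rows lay above the 30th percentile of their array on all 8 arrays, so each was tested and the filter removed none. The precision of the comparison is given by the 95% confidence intervals of the differences. Across the 9 markers the intervals reached no lower than -0.40 and no higher than 0.27, or 0.760-fold to 1.21-fold. The pooled within-group SD of the 9 had a median of 0.098 and ran from 0.054 to 0.17, beside a median of 0.098 over all tested genes. The smallest difference among the 18 genes that passed was 0.37 in size, which the interval of Gdf10 reached and those of the other 8 markers did not.

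**Figure D1:**
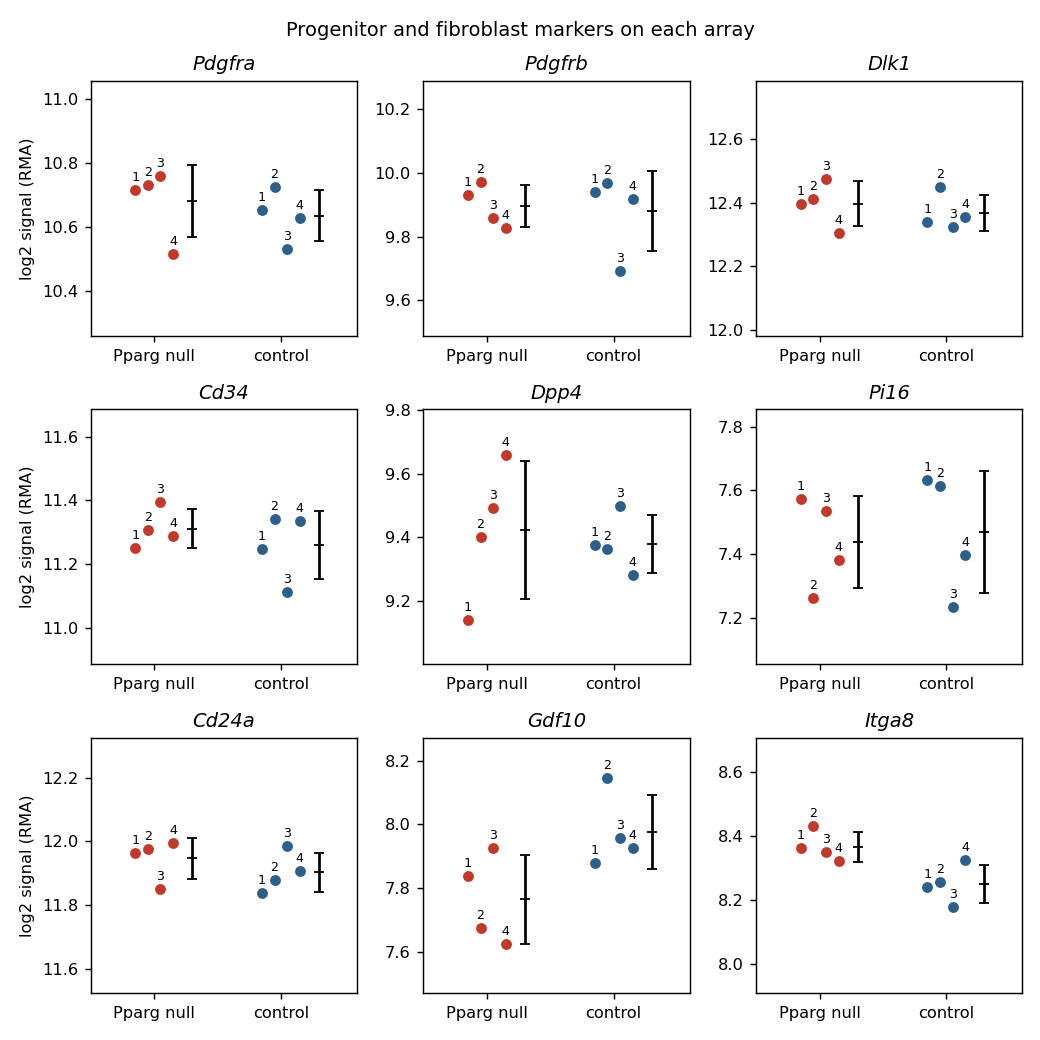
Log2 signal (y axis) of the 9 measured markers on the arrays labelled Pparg null (red, left) and control (blue, right), with the array number beside each point and the mean ± SD (n = 4) as a bar. Every panel spans the same 0.8 log2 units, and the groups overlap in each; Dpp4 has the widest spread on the arrays labelled Pparg null, from 9.14 to 9.66.

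The sequences before the starts of 5 of these genes are shown because they carry the results that follow: Pdgfra and Dlk1 varied most closely together across the arrays, Gdf10 and Itga8 had the smallest p-values, and Dpp4 had the widest spread. The windows are the 250 bases before the RefSeq start in assembly GRCm38.p6, read 5′ to 3′ on the gene's strand. RefSeq starts were found for 7 of the 10 markers. Capitals mark matches, on either strand, to 6 motifs: a pair of AGGTCA half-sites on one strand with any 1 base between them, the element bound by PPARgamma with its partner RXR, then the single half-site AGGTCA, the E-box CANNTG, the TATA box TATAAA, the CCAAT box CCAAT and the GC box GGGCGG. A single half-site also lies within each paired site.
Pdgfra, chr5:75152001-75152250, plus strand: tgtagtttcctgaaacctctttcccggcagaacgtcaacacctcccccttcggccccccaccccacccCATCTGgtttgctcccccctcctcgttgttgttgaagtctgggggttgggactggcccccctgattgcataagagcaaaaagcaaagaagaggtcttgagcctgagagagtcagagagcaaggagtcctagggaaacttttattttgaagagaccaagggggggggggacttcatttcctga
Dlk1, chr12:109452573-109452822, plus strand: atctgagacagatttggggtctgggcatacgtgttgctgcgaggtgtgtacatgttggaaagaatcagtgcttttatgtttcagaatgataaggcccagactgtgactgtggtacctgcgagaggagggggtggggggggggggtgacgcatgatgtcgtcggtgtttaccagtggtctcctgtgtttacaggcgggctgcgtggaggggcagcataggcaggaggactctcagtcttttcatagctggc
Gdf10, chr14:33923337-33923586, plus strand: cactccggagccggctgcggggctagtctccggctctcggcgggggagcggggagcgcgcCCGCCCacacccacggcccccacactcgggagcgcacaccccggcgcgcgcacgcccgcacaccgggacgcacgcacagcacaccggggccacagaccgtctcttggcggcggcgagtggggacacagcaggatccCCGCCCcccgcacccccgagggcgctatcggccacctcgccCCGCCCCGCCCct
Itga8, chr2:12301945-12302194, minus strand: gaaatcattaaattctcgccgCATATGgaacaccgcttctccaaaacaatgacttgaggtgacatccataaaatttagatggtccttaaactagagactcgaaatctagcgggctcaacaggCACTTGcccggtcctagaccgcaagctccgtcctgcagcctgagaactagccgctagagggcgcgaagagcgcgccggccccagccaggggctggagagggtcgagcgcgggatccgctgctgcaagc
Dpp4, chr2:62412232-62412481, minus strand: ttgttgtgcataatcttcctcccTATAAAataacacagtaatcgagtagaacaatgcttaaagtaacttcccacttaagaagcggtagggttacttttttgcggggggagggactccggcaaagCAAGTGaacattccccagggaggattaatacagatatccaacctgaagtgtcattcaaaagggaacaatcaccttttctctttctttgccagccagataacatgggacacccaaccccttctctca

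No window of the 7 markers held the paired half-sites, which 0.0335% of all 32851 RefSeq windows held, or the single half-site, which 14.0% held. This says only that these letters are not in these windows. The E-box stood in the windows of Pdgfra, Itga8 and Dpp4, and in 66.2% of all windows. Gdf10 held 4 GC boxes, the last pair of which is visible as the run of capitals next to the start, where 32.7% of all windows held at least 1. The TATA box letters of Dpp4 lay 227 bases before its start and were held by 12.4% of all windows. The Dlk1 window matched none of the 6 motifs. A match is a description of letters and not a binding site.

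Pdgfra and Pdgfrb, the receptor tyrosine kinases for platelet-derived growth factors, did not pass the test. Pdgfra is carried by nearly all dermal fibroblasts and adipose progenitors, and Pdgfrb by pericytes and other mural cells as well as by progenitors. Pdgfra read 10.71, 10.73, 10.76 and 10.51 on labelled-null arrays 1 to 4, against 10.65, 10.73, 10.53 and 10.63 on control arrays 1 to 4. Of the arrays labelled Pparg null, 3 lay together near the highest control array, and array 4 lay below all control arrays. The difference was 0.05 (SE 0.068, 95% confidence interval -0.11 to 0.20; limma adjusted p = 0.9995; exact two-sided permutation p = 0.571, where 4 against 4 arrays can reach no less than 0.0286). It was 0.10 without labelled-null array 4 and 0.08 without control array 2, and 0.01 without control array 3, 0.02 without labelled-null array 3 and 0.03 without labelled-null array 2.

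Pdgfrb read 9.93, 9.97, 9.86 and 9.83 on labelled-null arrays 1 to 4, against 9.94, 9.97, 9.69 and 9.92 on control arrays 1 to 4. Control array 3 was the low one, and the other 7 arrays lay within the same narrow band. The difference was 0.02 (95% confidence interval -0.14 to 0.17), -0.05 without control array 3 and -0.01 without labelled-null array 2, so it has no stable sign. Mural cell markers, which Pdgfrb shares, had 5 of 11 tested genes below control and 6 above, with a median difference of 0.02 and none past the threshold. Their summed log2 signal was 13.03 to 13.41 on the arrays labelled Pparg null and 13.14 to 13.30 on the control arrays.

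Dlk1, the transmembrane protein known as preadipocyte factor 1, whose shed form restrains adipogenesis, was among the most narrowly measured of the markers. It read 12.40, 12.41, 12.48 and 12.30 on labelled-null arrays 1 to 4, against 12.34, 12.45, 12.32 and 12.35 on control arrays 1 to 4. The arrays labelled Pparg null held both the highest and the lowest of the 8 values. Its mean was 12.40 ± 0.07 on the arrays labelled Pparg null and 12.37 ± 0.06 in control skin (log2 signal, SD, n = 4 each), a difference of 0.03. The 95% confidence interval of -0.09 to 0.15 corresponds to 0.939-fold to 1.11-fold. By exact permutation, two-sided, p was 0.514. Dlk1 differed by 0.06 without labelled-null array 4 or without control array 2, 0.02 without control array 3 and 0.0034 without labelled-null array 3.

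Cd34, a sialomucin of adipose progenitors that endothelium and the postnatal follicle bulge also carry, read 11.25, 11.31, 11.40 and 11.29 on labelled-null arrays 1 to 4. On control arrays 1 to 4 it read 11.25, 11.34, 11.11 and 11.34. Control array 3 lay below the rest, and the other values of both groups were intermixed. The difference was 0.05 (95% confidence interval -0.09 to 0.19, exact two-sided permutation p = 0.457). It was 0.0017 without control array 3, 0.02 when labelled-null array 3 was left out and 0.08 when control array 2 or 4 was. Among endothelial markers 5 of 10 tested genes lay below control and 5 above, with a median difference of 0.0042 and none past the threshold.

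Cd24a, a small lipid-anchored glycoprotein that marks an early subset of adipose progenitors, is also carried by epithelial and red blood cells. It read 11.96, 11.98, 11.85 and 12.00 on labelled-null arrays 1 to 4, against 11.84, 11.88, 11.99 and 11.91 on control arrays 1 to 4. Labelled-null array 3 was the low one of its group and control array 3 the high one of the other. The difference was 0.04 (95% confidence interval -0.08 to 0.16, exact two-sided permutation p = 0.371). It was 0.02 without control array 1, 0.03 without labelled-null array 4, 0.07 without control array 3 and 0.08 without labelled-null array 3, and 0.0057 with control array 1 and labelled-null array 4 both left out. Erythroid markers lay above control in 6 of 7 tested genes, with a median difference of 0.17 and none past the threshold. The summed log2 signal of the 9 erythroid genes with a row was 10.07 to 10.62 on the arrays labelled Pparg null and 9.87 to 10.40 on the control arrays, and their part in the Cd24a value was not tested.

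Dpp4, the surface peptidase CD26, marks interstitial progenitors of adipose tissue and fibroblasts of the upper dermis. It read 9.14, 9.40, 9.49 and 9.66 on labelled-null arrays 1 to 4, against 9.38, 9.36, 9.50 and 9.28 on control arrays 1 to 4. The arrays labelled Pparg null thus ran from below the lowest control array to above the highest. The SD was 0.22 on the arrays labelled Pparg null and 0.09 on the control arrays (n = 4 each), and this contrast in spread was not tested. The difference in means was 0.04 (95% confidence interval -0.18 to 0.27, exact two-sided permutation p = 0.714). Leaving out labelled-null array 4 turned it to -0.04, and leaving out labelled-null array 1 raised it to 0.14.

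Xist, the RNA of the inactive X chromosome in females, read 12.10 to 12.27 on 4 arrays and 4.86 to 5.39 on the other 4, and each group held 2 of each kind. Dpp4 was 0.25 higher on labelled-null than on control arrays among those with high Xist and differed by -0.16 among those with low Xist, with 2 arrays of each genotype in each kind. The test of that contrast, added after the Dpp4 values were seen, gave an unadjusted limma p of 0.0354 and an adjusted p of 0.9998, and 0 of 15174 genes passed it, with 251 under an unadjusted limma p of 0.05. Gdf10 lay lower on the labelled-null arrays in both kinds, by -0.13 with high Xist and -0.30 with low Xist, and Itga8 lay higher by 0.05 and 0.18.

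Pi16, a secreted member of the CAP protein family, marks fibroblasts found in the fascia and around vessels of many tissues. It read 7.57, 7.26, 7.54 and 7.38 on labelled-null arrays 1 to 4, against 7.63, 7.61, 7.23 and 7.40 on control arrays 1 to 4. Both groups were spread over nearly the same range. The difference was -0.03 (95% confidence interval -0.26 to 0.20, exact two-sided permutation p = 0.743). It was 0.04 with control array 1 and labelled-null array 4 both left out, and turned positive when any of control array 1 (0.02), control array 2 (0.02) and labelled-null array 2 (0.03) was left out.

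Gdf10, a secreted ligand of the TGF-beta superfamily also called BMP3b, is produced by stromal cells of adipose tissue that hold back adipogenesis in mouse. It read 7.84, 7.67, 7.93 and 7.63 on labelled-null arrays 1 to 4, against 7.88, 8.14, 7.96 and 7.93 on control arrays 1 to 4. Labelled-null arrays 1, 2 and 4 lay below all control arrays, while array 3 was level with control array 4 and above control array 1. Its mean was 7.77 ± 0.14 on the arrays labelled Pparg null and 7.98 ± 0.12 in control skin (log2 signal, SD, n = 4 each), a difference of -0.21 (SE 0.082). The 95% confidence interval ran from -0.40 to -0.03, or 0.760-fold to 0.981-fold. The unadjusted limma p of 0.0285 became 0.9995 after adjustment over all genes, and the exact two-sided permutation p was 0.0857. All 4 arrays labelled Pparg null lay below the control mean, and the difference stayed between -0.26 and -0.16 when 1 array was left out.

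Itga8, the alpha-8 integrin subunit that pairs with beta-1 and binds nephronectin, is carried by smooth muscle such as the arrector pili and by fibroblasts. It read 8.36, 8.43, 8.35 and 8.32 on labelled-null arrays 1 to 4, against 8.24, 8.26, 8.18 and 8.32 on control arrays 1 to 4. Only control array 4 reached the range of the arrays labelled Pparg null, passing labelled-null array 4 by less than 0.01. Its mean was 8.37 ± 0.05 on the arrays labelled Pparg null and 8.25 ± 0.06 in control skin (log2 signal, SD, n = 4 each), a difference of 0.12 (SE 0.050, 95% confidence interval 0.0042 to 0.23). The unadjusted limma p of 0.0435 became 0.9995 after adjustment, and the exact two-sided permutation p was 0.0571. When 1 array was left out the difference stayed between 0.09 and 0.14.

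**Figure D2:**
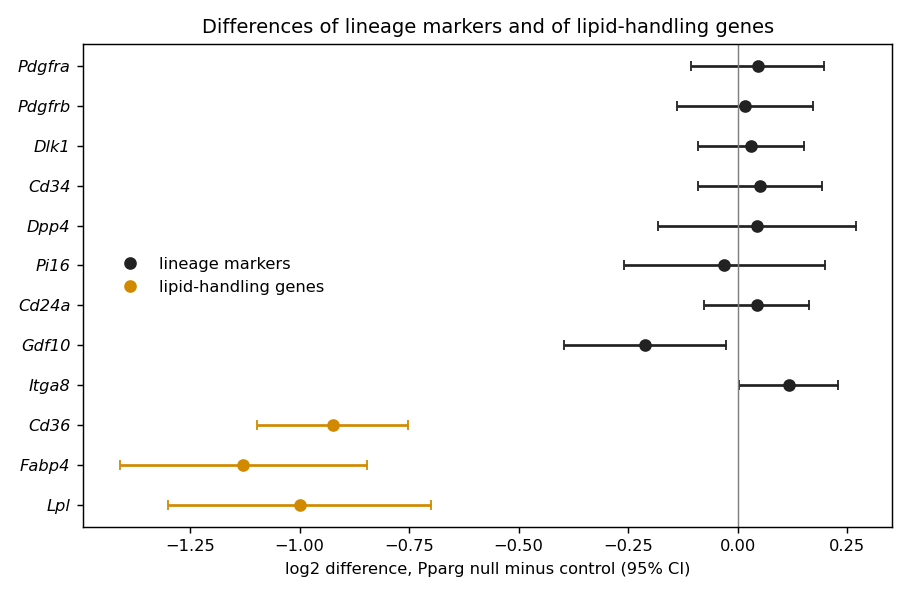
Log2 differences (x axis, Pparg null minus control) with 95% confidence intervals for the 9 lineage markers (black) and for Cd36, Fabp4 and Lpl (orange). The intervals of 7 markers hold 0, that of Gdf10 lies below it and that of Itga8 just above it, and the intervals of the 3 lipid-handling genes all lie below -0.70. These 3 are shown because they passed the threshold on these same arrays.

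The genes listed here as markers of committed preadipocytes included some with larger differences. Of 13 tested committed preadipocyte markers, 3 fell past the threshold, where 0.112% of all genes did, namely Cd36, Fabp4 and Lpl. The list was chosen with earlier results of these data known, so counts from it are a description and no test of the list. The fatty acid transporter Cd36 read 8.75 to 9.09 on the arrays labelled Pparg null and 9.71 to 9.92 on the control arrays, a difference of -0.92 (95% confidence interval -1.10 to -0.75, limma adjusted p = 0.00585). Fabp4, which carries fatty acids inside adipocytes, differed by -1.13 (-1.41 to -0.85), with a limma adjusted p of 0.0189. Lpl, lipoprotein lipase, averaged 9.05 ± 0.25 on the arrays labelled Pparg null and 10.05 ± 0.20 in control skin (log2 signal, SD, n = 4 each). The interval of its difference ran from -1.30 to -0.70, with a limma adjusted p of 0.0276. The groups of these 3 genes did not overlap. Cd36 passed under all 19 other settings, while Fabp4 passed under 12 and Lpl under 11 of them, with differences of -1.22 to -1.03 and -1.10 to -0.89. With the replicate number as a block the limma adjusted p was 0.0965 for Fabp4 and 0.0600 for Lpl, and with every row tested on its own it was 0.0804 and 0.123. Neither passed without any one of control arrays 2, 3 and 4 or labelled-null arrays 1 and 2, with an adjusted p of 0.0543 to 0.0890 for Fabp4 and 0.0917 to 0.136 for Lpl, and Lpl had 0.0553 with sex as a covariate. The lowest bound among the lineage markers, -0.40 for Gdf10, lies above the highest bound of the 3, -0.70 for Lpl. The 3 were picked from their list because they passed the threshold on these same arrays, a choice that favours large differences. This gap is therefore no separate result, and the difference between the 2 sets of genes was not tested. Over the whole committed list 9 of 13 lay below control and 4 above, with a median of -0.08, and Pparg itself was the highest at 0.18. The 10 members that did not pass lay on both sides, 6 below and 4 above, with a median of -0.02. Under an unadjusted limma p of 0.05 lay 7 of the 13, the 3 called genes among them, where 3.61% of all genes did. Those of the 7 that were not called went in both directions.

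The same 3 genes also stand in the list of white adipocyte markers, of which 10 of 11 tested genes lay below control, with a median difference of -0.38 and 4 past the threshold. The 4th, named after its values were seen, was the glycerol channel Aqp7, which differed by -0.85 (limma adjusted p = 0.0345) and passed under 9 of 18 other settings. It did not pass with the replicate block, with sex as a covariate, with every row tested on its own, or without any one of control arrays 2 to 4 and labelled-null arrays 1, 2 and 4, where the adjusted p reached up to 0.161. The summed log2 signal of the 13 white adipocyte genes with a row was 11.27 to 11.52 on the arrays labelled Pparg null and 11.95 to 12.25 on the control arrays. This sum holds the 4 called genes, so it is no separate result. How much of the Cd36, Fabp4 and Lpl signal comes from progenitors, from adipocytes or from other cells of full-thickness skin was not tested.

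The summed log2 signal of the 13 committed preadipocyte genes was 12.90 to 13.15 on the arrays labelled Pparg null and 13.18 to 13.37 on the control arrays. That of the 9 lineage markers was 13.92 to 13.99 on the arrays labelled Pparg null and 13.88 to 13.97 on the control arrays. Signals were summed before taking the log, so the brightest rows lead this sum and dim ones hardly enter it. On the arrays labelled Pparg null Dlk1, Cd24a and Cd34 averaged 12.40, 11.95 and 11.31, against 7.77 for Gdf10 and 7.44 for Pi16. The first pair of ranges does not overlap, and the second does. Cd36, Fabp4 and Lpl, called on these same arrays, are part of the first sum. The first pair is therefore no separate result, and the sum without those genes was not computed.

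Other markers of early adipose progenitors and fascia fibroblasts did not pass the test. Of 14 listed genes 13 were tested, of which 9 lay below control and 4 above, with a median difference of -0.06 and a range of -0.11 to 0.15. Dpt, the matrix protein dermatopontin, read 11.65 to 11.72 on the arrays labelled Pparg null and 11.76 to 11.85 on the control arrays, so its groups did not overlap, with a difference of -0.09 (limma adjusted p = 0.9995). The chemokine receptor Ackr3 differed by 0.15, and the surface glycoprotein Thy1 by -0.10. Neither of these separated the groups. Ackr3 was 0.05 without control array 3, and Thy1 was -0.05 without labelled-null array 4 and -0.03 with control array 1 left out as well.

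A further 9 genes mark the stromal cells in which Gdf10 was described, known as adipogenesis-regulatory cells, and 8 of them were tested. Of these 4 lay below control and 4 above, with a median difference of 0.01. Cygb, the globin cytoglobin, read 8.92 to 9.20 on the arrays labelled Pparg null and 9.24 to 9.34 on the control arrays, a difference of -0.18 with groups that did not overlap. Clec11a, a secreted lectin, differed by 0.19, and Mgp, an inhibitor of matrix calcification, by 0.16. These 3 had unadjusted limma p-values of 0.0201, 0.0210 and 0.0408 and went in both directions, and none passed adjustment over all genes. They were the 3 of 8 under an unadjusted limma p of 0.05, where 3.61% of all genes lay. Groups that did not overlap, as for Cygb, were found for 2.45% of all genes.

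Papillary fibroblast markers lay on both sides of control, with 6 of 11 tested genes below and 5 above and a median of -0.0030. The R-spondin Rspo1, which boosts Wnt signals, differed by -0.19, the Wnt effector Lef1 by 0.05 and the guidance cue Ntn1 by -0.07. Without labelled-null array 4 Rspo1 was -0.09 and Ntn1 was 0.02, without labelled-null array 3 Ntn1 was -0.13, and Lef1 was 0.0062 without labelled-null array 2 and 0.03 without control array 4. Reticular and general fibroblast markers were likewise divided, with 9 of 17 below and 8 above and a median of -0.0075. S100a4, a calcium-binding protein of motile mesenchymal cells, differed by 0.22, the matricellular protein Postn by -0.08 and the collagen chain Col1a1 by -0.09. Without labelled-null array 4 Postn was -0.06 and Col1a1 was -0.04. None of the genes of these 2 lists passed the threshold.

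Ligands, partners and relatives of the 9 markers were examined as a list of 20, of which 18 were tested, with 6 below control and 12 above and a median difference of 0.02. Fap, the fibroblast activation protein and closest relative of Dpp4, read 7.99 to 8.32 on the arrays labelled Pparg null and 7.87 to 7.99 on the control arrays, a difference of 0.19 with an exact two-sided permutation p of 0.0571 and a limma adjusted p of 0.9995. The cytosolic relative Dpp9 differed by -0.15, with the same exact permutation p of 0.0571. Pdgfd, a ligand of the Pdgfrb receptor, differed by -0.15. Pdgfd was -0.09 without labelled-null array 4, and Fap was 0.13 without labelled-null array 3. Across the list the differences ran from -0.15 to 0.19, and none passed.

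**Figure D3:**
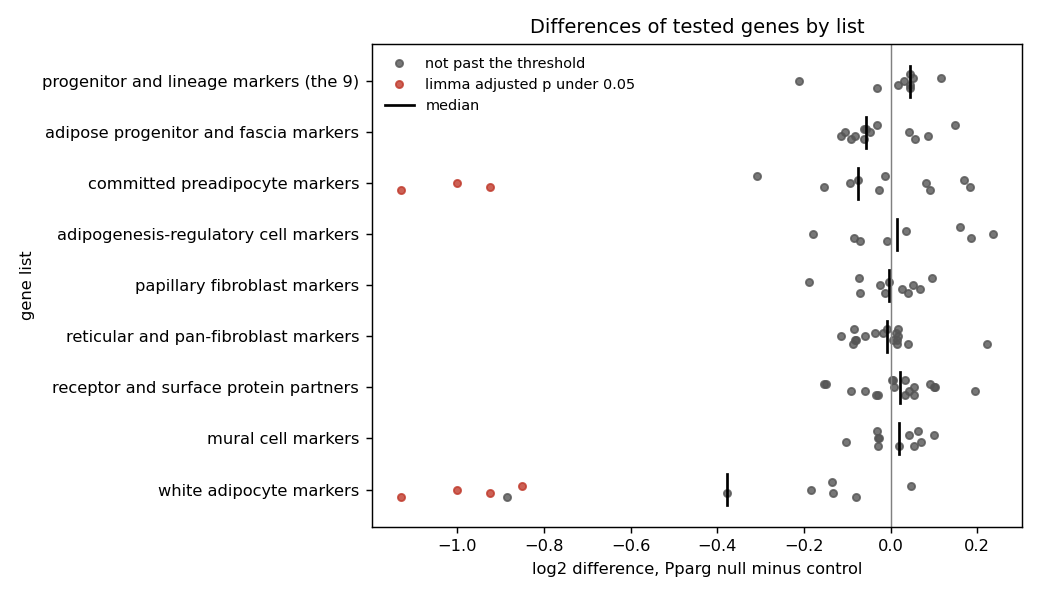
Log2 difference, Pparg null minus control (x axis), of each tested gene, grouped by list (rows), with the list median as a black line and genes past a limma adjusted p of 0.05 in red. The progenitor, papillary and reticular lists lie around 0 with medians between -0.06 and 0.04, and red points are found in the committed preadipocyte and white adipocyte lists, which share Cd36, Fabp4 and Lpl.

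Within each group, single arrays were extreme for several markers at once. Labelled-null array 4 held the lowest of the 8 values for Pdgfra, Dlk1 and Gdf10 and the highest for Dpp4 and Cd24a. Control array 3 held the lowest values for Pdgfrb, Cd34, Pi16 and Itga8. On each of these 2 arrays the same 7 markers lay below their group mean, namely all but Dpp4 and Cd24a. Labelled-null array 3 held the highest values for Pdgfra, Dlk1 and Cd34.

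**Figure D4:**
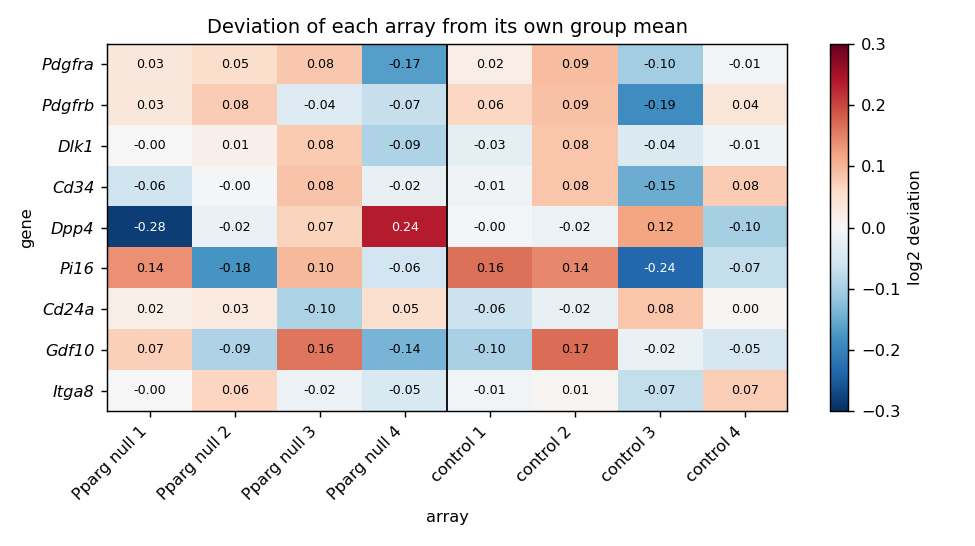
Deviation, on the log2 scale, of each array (columns) from the mean of its own group for each marker (rows), with red above and blue below the group mean. Labelled-null array 4 and control array 3 lie below their group means for all markers but Dpp4 and Cd24a.

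Pdgfra and Dlk1 ranked the 8 arrays in nearly the same order. Over the 8 arrays Pearson's r was 0.91 (exact permutation p = 0.00273, adjusted p = 0.123 over 45 relations computed) and Spearman's rho was 0.95 (exact permutation p = 0.00114, adjusted p = 0.0513). Leaving out the 2 arrays farthest from the median of Pdgfra, labelled-null array 4 and control array 3, r was 0.91 over 6 arrays. Pdgfra and Pdgfrb had r = 0.70 (exact permutation p = 0.0419, adjusted p = 0.417) and rho = 0.60 (exact permutation p = 0.132, adjusted p = 0.521). That r was -0.15 without the same 2 arrays. Pi16 and Cd24a ran in opposite directions, with r = -0.74 (exact permutation p = 0.0447, adjusted p = 0.417) and rho = -0.81 (exact permutation p = 0.0218, adjusted p = 0.314), and r was -0.60 without the 2 arrays farthest from the median of Pi16. Dlk1 also followed the mean of the reticular and general fibroblast list, with r = 0.74 (exact permutation p = 0.0297, adjusted p = 0.417) and rho = 0.88 (exact permutation p = 0.00724, adjusted p = 0.163). Without the 2 arrays farthest from the median of that list mean, labelled-null array 4 and control array 1, r was 0.68. None of the 45 relations, 36 between markers and 9 with that list mean, passed adjustment, and 5 had an unadjusted exact permutation p under 0.05 by Pearson's r and 5 by Spearman's rho.

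**Figure D5:**
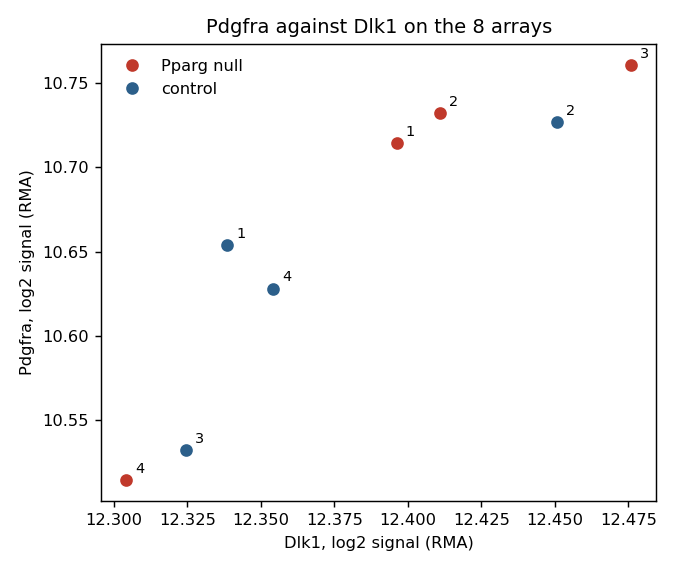
Log2 signal of Pdgfra (y axis) against that of Dlk1 (x axis) on the 8 arrays, with the arrays labelled Pparg null in red, the control arrays in blue and the array number beside each point. Labelled-null array 4 and control array 3 lie lowest on both axes and labelled-null array 3 highest, and the 2 groups are intermixed along the line.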

How the data were processed

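Total RNA of 8 skin samples was amplified and hybridised to 8 arrays, per the labels' protocols. The authors deposited log2 values that Affymetrix Expression Console computed by RMA, as listed per the submitters' processing notes. RMA subtracts background, gives all arrays 1 distribution by quantile normalization and summarizes the probes of a row, so a shift of all genes together, or the loss of single exons, cannot be seen. Versions, build and filters: not given in the sources. Array medians lay between 6.93 and 6.96, and pairs of arrays correlated at r = 0.989 to 0.994; the 4 arrays per group limit the precision.

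Of 35556 rows, 21789 had 1 gene symbol, 1621 several and 12146 none. Of the rows with 1 symbol, 21698 were matched to RefSeq by gene ID and took the RefSeq symbol. Where a gene had several rows, the brightest was used. Genes above the 30th percentile on at least 4 of 8 arrays were tested, 15174 of 19938, with limma (version 3.58.1, R 4.3.3; lmFit, eBayes, no covariates, two-sided, Benjamini-Hochberg adjustment). The step was tested on simulated data. Single values were also tested by exact permutation. Array coordinates are not given because the build is not named.

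Named with a group difference are the 9 measured markers and Pparg, with Aqp7 and Mcpt4 added after their values were seen. From each of 6 related lists the genes past the threshold were named, or otherwise the 3 with the smallest p. The markers, lists and tests were chosen with earlier results of these data known. Replicate numbers in the titles were not taken to pair arrays. Deviations from the group mean correlated between same-numbered arrays at r = -0.31, 0.20, 0.05 and -0.03. These values cannot settle whether same-numbered arrays shared a litter or batch, which the labels do not give. Alternatives were other filters, centring, cyclic loess, another prior, array weights, the replicate number as a block, other treatment of rows, Xist-based sex as a covariate, and leaving out arrays.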

Additional observations from a re-analysis of the deposited data

Results flagged for a closer look

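A single array stood far from its group in 2 of 58 sets of 4 values, where chance gives about 1 in 20. The progenitor marker Dpt read 11.85 on control array 4 against 11.76 to 11.77 on the other control arrays, with a gap of 0.862 of the group's range. Ackr3 read 7.20 on labelled-null array 2 and between 7.04 and 7.06 on its 3 neighbours in the group, with a gap of 0.858. None of the 9 lineage markers had such an array.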

How the results depend on the processing

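The count of 0 lineage markers past the threshold held under all 19 other settings, where the lowest adjusted p of any marker was 0.982; fits with fewer arrays have less power. Of 171 values of the 9 markers under other settings, 8 had the opposite sign, all for Pdgfrb, Dpp4 or Pi16. Leaving out 1 array gave -0.045 to 0.046 for Pdgfrb, -0.035 to 0.14 for Dpp4, -0.11 to 0.028 for Pi16 and -0.13 to 0.016 for Ntn1. With control array 1 and labelled-null array 4 both left out, Dpp4 was -0.036, Pi16 0.043 and Ntn1 0.021. The median of the markers was 0.011 to 0.046 when 1 array was left out. The count of 18 among all genes was 1 with the replicate block, 1 with every row tested on its own, 11 with sex as a covariate, and 3 to 15 when 1 array was left out (3 when that was labelled-null array 2, 4 for control array 2 or 3, 5 for control array 4 or labelled-null array 1, and 9 for labelled-null array 3); the cause was not tested. The replicate block changed no call of a lineage marker, while it ended those of Fabp4 (adjusted p = 0.0965), Lpl (0.0600) and Aqp7, and Cd36 still passed.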
